A study of Mus musculus with 18 samples.

Results

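The mouse Ly6 family was followed through 9 genes of chromosome 15, namely Psca, Ly6a, Ly6c1, Ly6c2, Ly6e, Ly6d, Ly6k, Lynx1 and Lypd2. The genes were named in a list that was chosen on results of these same libraries, so their values are given as a description and not as independent evidence about the family. Which comparisons led to the list was not recorded. The 9 genes were found among 55401 genes of the endothelial table by Ensembl identifier and among 22612 genes of the EO771 table by symbol. Of the 9, 7 passed the minimum mean value of 10 and were tested in the endothelial libraries, and 6 were tested in EO771 cells. Ly6k and Lypd2 were too low for a test in either table, and Ly6d was too low for one in EO771 cells.

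RNA was sequenced from 18 libraries in 6 groups of 3. Female wild-type C57BL/6 mice gave the 12 endothelial libraries. Blood vessel endothelial cells (BECs) were sorted as CD45- CD31high cells from the mammary fat pad (BEC normal) or from primary EO771 tumours (BEC tumour). High endothelial cells (HECs), the cuboidal cells that line the venules through which lymphocytes enter lymph nodes, were sorted as CD45- CD31high PNAd+ cells from inguinal lymph nodes of mice without tumours (HEC normal) or with EO771 tumours (HEC tumour), whose tissue the labels give as lymph node metastases. EO771 is a mouse breast cancer cell line, and its 6 libraries came from cultures given vehicle (DMSO in saline) or 12-HETE, the lipid made from arachidonic acid by the enzyme ALOX12. HECs and BECs came from different organs, so cell type and tissue cannot be told apart. The labels do not say whether replicates were separate animals or cultures. The authors describe the replicates of both the endothelial and the cultured cells as independent experiments. The p-values measure the spread between these libraries, and the labels do not give the animals or cultures behind each library.

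Over all genes, the deposited values of an endothelial library summed to between 56.4 and 79.4 M, and the counts of an EO771 library to between 17.3 and 18.6 M. The 10 endothelial markers summed to 3410 to 3654 CPM, the values scaled to library size, in BEC normal, 2494 to 2555 in BEC tumour, 2624 to 2777 in HEC normal and 2697 to 2744 in HEC tumour. Of 7 markers of high endothelium, Glycam1, Chst4 and Ccl21a were at 0 in BEC normal and Chst2 and Ccl21a at 0 in both HEC groups. Their sum was 26.0 to 28.9 CPM in BEC normal, 10.6 to 13.8 in BEC tumour, 975 to 1331 in HEC normal and 2225 to 3057 in HEC tumour. The sum of 11 myeloid markers was 688.5 to 1149 CPM in BEC tumour and at most 20.1 CPM in each of the other endothelial groups, although the cells had been sorted as CD45-negative. That of 5 adipocyte markers was 64.8 to 72.6 CPM in BEC normal, 61.1 to 65.04 in BEC tumour, 183 to 210.4 in HEC normal and 122 to 127 in HEC tumour. Of the 5, 3 were at 0 in BEC normal, Adipoq among them, and 2 in HEC normal, Plin1 among them. In HEC tumour Adipoq alone was at 0, and only 2 of the 5 passed the minimum mean value.

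Ly6/uPAR proteins share a compact fold of finger-like loops held by disulphide bonds. Most are tethered to the outer face of the plasma membrane by a glycosylphosphatidylinositol (GPI) anchor, and a few are secreted. Ly6a (Sca-1) and the Ly6C proteins are used as surface markers of blood and endothelial cells, Ly6e is an interferon-inducible antigen that restricts the entry of several viruses, Psca and Ly6d are antigens of epithelia, and Lynx1 binds nicotinic acetylcholine receptors and dampens their response.

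In the GRCm38 assembly the members lie between positions 74714839 and 75111970 of chromosome 15, a span of 397 kb. Psca is at chr15:74714839-74717069 on the plus strand. The next members on that side of the cluster are Lypd2 (chr15:74732247-74734329), Lynx1 (chr15:74747852-74753046), Ly6d (chr15:74762056-74763620) and Ly6k (chr15:74796874-74799986), all on the minus strand. Ly6e is at chr15:74955051-74959905 on the plus strand. Ly6a (chr15:74994877-74998031), Ly6c1 (chr15:75044018-75048830) and Ly6c2 (chr15:75108158-75111970) follow on the minus strand. All 9 are protein-coding genes, and the values counted reads over their exons. The exons of Ly6k overlap those of Gm17189, and those of the neighbours Slurp1 and Them6 overlap each other. The sources do not state whether counting used the strand, so values of overlapping genes are uncertain.

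Ly6c1 and Ly6c2 are near copies, and reads from either could be split between them. Of the 50-base stretches in the transcripts of Ly6c1, 21.5% also occur in transcripts of Ly6c2 and 11.1% in those of Ly6a. Of those in Ly6a transcripts, 15.03% also occur in Ly6c1. The levels of these genes are uncertain for that reason, and most of all that of Ly6c2, because Ly6c1 was far higher. Mean normalised counts of Ly6c1 and Ly6c2 were 13382 and 499 in BEC normal and 2680 and 102 in BEC tumour. They were 5380 and 125 in HEC normal and 6611 and 179 in HEC tumour. Per kilobase of exon they were 2737 and 7.11 in EO771 cells under vehicle and 1846 and 1.82 with 12-HETE. Reads of Ly6c1 may be part of the Ly6c2 values, and their part was not tested in any group. The sequences before their starts are also alike, though less so than those of each other pair compared below. RefSeq promoters, from 250 bases before the start to 50 after it, were at hand for Ly6c1 and Ly6c2 among the members and for Ly6g and Ly6f among the other Ly6 genes of the cluster. They are shown because no other listed Ly6/uPAR gene of chromosome 15 had one at hand. In tumour BECs Ly6c1 and Ly6c2 were lower, Ly6g was higher and Ly6f passed no test. A relation of these changes to the sequences was not tested. RefSeq gives 2 starts each for Ly6c1, Ly6c2 and Ly6g, and the window of the upstream start is printed. Each is written 5′ to 3′ on the strand of the gene, with matches to TATAAA and CCAAT in capitals (GRCm38.p6).

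Ly6c1, chr15:75048788-75049087, minus strand: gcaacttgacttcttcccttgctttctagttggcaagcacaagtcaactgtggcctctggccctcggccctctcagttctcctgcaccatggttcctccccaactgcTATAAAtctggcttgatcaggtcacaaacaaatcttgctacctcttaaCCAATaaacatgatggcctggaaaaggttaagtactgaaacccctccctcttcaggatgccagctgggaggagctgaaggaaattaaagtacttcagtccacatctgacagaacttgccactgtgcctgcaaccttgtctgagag

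Ly6c2, chr15:75111922-75112221, minus strand: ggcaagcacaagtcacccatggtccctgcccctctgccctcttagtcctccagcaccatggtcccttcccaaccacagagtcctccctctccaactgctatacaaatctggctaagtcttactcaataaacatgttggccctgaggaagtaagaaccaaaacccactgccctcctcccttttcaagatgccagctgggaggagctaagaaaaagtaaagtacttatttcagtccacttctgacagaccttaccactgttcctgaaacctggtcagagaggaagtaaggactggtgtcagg

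Ly6g, chr15:75155011-75155310, plus strand: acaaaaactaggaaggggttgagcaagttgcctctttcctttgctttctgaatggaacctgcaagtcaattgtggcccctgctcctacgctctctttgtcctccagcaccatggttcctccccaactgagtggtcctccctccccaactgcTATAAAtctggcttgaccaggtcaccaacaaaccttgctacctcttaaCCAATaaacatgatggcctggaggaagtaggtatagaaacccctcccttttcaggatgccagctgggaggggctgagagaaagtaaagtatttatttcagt

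Ly6f, chr15:75268171-75268470, plus strand: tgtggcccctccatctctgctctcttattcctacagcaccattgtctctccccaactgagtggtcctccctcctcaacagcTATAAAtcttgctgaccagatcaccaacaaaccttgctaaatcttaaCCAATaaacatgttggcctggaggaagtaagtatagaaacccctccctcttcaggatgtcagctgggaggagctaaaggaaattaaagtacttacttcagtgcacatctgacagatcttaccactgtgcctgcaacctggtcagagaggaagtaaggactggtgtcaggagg

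The Ly6c1 and Ly6c2 windows were identical at 214 of 260 aligned bases (82.3%), and the other pairs were identical at 83.8 to 87.8% of their aligned bases. TATAAA began 143 bases before the start of Ly6c1, 99 before that of Ly6g and 169 before that of Ly6f. CCAAT began 95, 51 and 122 bases before the same starts. These distances depend on the start. At the downstream start of Ly6g they were 167 and 119 bases, and the window of the downstream start of Ly6c1 held neither motif. Neither window of Ly6c2 held one. Both strands were searched, and of all 32851 promoters of the same length 13.6% held TATAAA and 37.4% held CCAAT. The interferon-stimulated response element (GAAA, any 2 bases, GAAA) and the GAS element (TTCNNNGAA) matched nowhere in the windows of these 4 genes, and 3.44% and 8.30% of all promoters held them. A match is a description of the letters alone.

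Each comparison was read from one fit of the whole table, and calls required an adjusted p under 0.05 (DESeq2, Benjamini-Hochberg over all genes tested) and a fold change of more than 2. In tumour BECs against BECs of the fat pad, 2 of the 7 tested members were called higher (Psca and Ly6d) and 4 lower (Ly6a, Ly6c1, Ly6c2 and Ly6e), where 12.4% and 10.8% of all 18511 genes tested were called. In HECs of tumour-bearing against tumour-free mice, Psca was called higher and Ly6e lower, 1 of 7 each, where 4.58% and 3.21% of all genes were called. In HEC normal against BEC normal, 2 were called higher (Psca and Ly6d) and 2 lower (Ly6c1 and Ly6c2), beside 17.1% and 15.1% of all genes. In HEC tumour against BEC tumour, 3 were called higher (Psca, Ly6a and Ly6c1) and 2 lower (Ly6d and Lynx1), beside 11.2% and 10.7%. The median log2 fold change of the tested members was -1.24 in BECs with tumour and 0.30 in HECs with tumour, and that of all genes was 0.01 and 0.02. These comparisons share groups, and the members were chosen with earlier results of these libraries known, so the counts are descriptive.

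**Figure D1:**
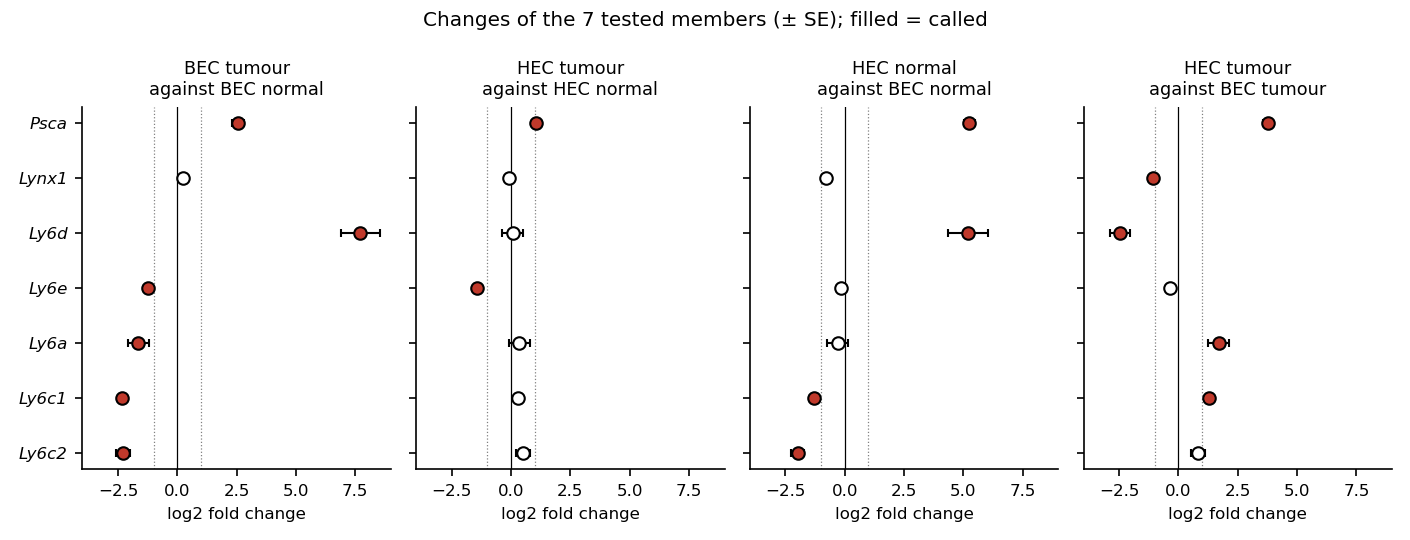
Log2 fold change (± SE) of the 7 tested members in 4 endothelial comparisons, each from 3 libraries against 3. Filled points were called, and dotted lines mark a fold change of 2. Psca lies to the right in all 4 panels, while Ly6e, Ly6a, Ly6c1 and Ly6c2 lie at -1.24 to -2.32 in BECs with tumour and, of these, Ly6e alone lies past the line in HECs with tumour.

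Psca, the prostate stem cell antigen and a GPI-anchored protein of several epithelia, stood highest in HECs of tumour-bearing mice and lowest in BECs of the normal fat pad. Normalised counts of Psca were 20.3, 14.1 and 34.5 in the BEC normal libraries and 115, 149 and 144 in the BEC tumour libraries. They were 957, 899.7 and 793 in HEC normal and 2018, 1829.5 and 1670.3 in HEC tumour. No library of one group reached into the range of another, and the groups ascended from BEC normal through BEC tumour and HEC normal to HEC tumour. The means were 23.0 ± 10.5, 136 ± 18.3, 883 ± 83.3 and 1839 ± 174 (SD, n = 3 each).

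HEC normal held 38.1 times the Psca level of BEC normal, a log2 fold change of 5.25 ± 0.24 (SE) with an adjusted p of 6.79e-105 (DESeq2). With edgeR this log2 fold change was 5.29 (adjusted p = 3.03e-08). In the tumour-bearing mice the ratio of HECs to BECs was 13.5 (3.76 ± 0.18, adjusted p = 1.25e-98). With tumour, Psca rose 5.87-fold in BECs (2.55 ± 0.25, adjusted p = 6.65e-24) and 2.08-fold in HECs (1.06 ± 0.17, adjusted p = 2.30e-09). The rise in HECs was smaller on the log2 scale, with a difference of -1.50 ± 0.30 between the changes (adjusted p = 2.55e-06). The call in HECs lies next to the threshold, because without HEC normal replicate 3 the log2 fold change was 0.98 and without HEC tumour replicate 1 it was 0.99, and Psca was then not called.

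The summed markers of mesothelium and of simple epithelium were also lowest in BEC normal. The 4 mesothelium markers summed to 15.5 to 16.0 CPM in BEC normal, 19.9 to 21.3 in BEC tumour, 71.8 to 79.1 in HEC normal and 136 to 143 in HEC tumour, in the same order as Psca and with no overlap. Among them Upk3b was at 0 in BEC normal and Wt1 in HEC normal. The sum of 8 markers of simple epithelium was 4.69 to 7.96 CPM in BEC normal, 15.3 to 95.4 in BEC tumour, 29.1 to 32.2 in HEC normal and 32.5 to 34.8 in HEC tumour, where Epcam was at 0. Of these 8, all tested, 1 was called higher and 1 lower in HEC normal against BEC normal. In HEC tumour against BEC tumour 1 was higher and 4 lower (median log2 fold change -3.60). With tumour 4 were higher in BECs and none was called in HECs. All genes were called higher and lower at 17.1% and 15.1% without tumour and 11.2% and 10.7% with it. With tumour 12.4% were higher in BECs and 4.58% in HECs. The part of mesothelial or epithelial cells in the Psca values was not tested.

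By the smallest root mean square difference of centred log2 levels over the 12 libraries, among 13315 genes, the genes most like Psca were Gsta1 (0.39), Gm3776 (0.45) and Kctd4 (0.49), where the median gene differed by 2.53. Gsta1 encodes a glutathione transferase. Its mean normalised counts were 42.6 and 334 in BEC normal and tumour, and 1221 and 3023 in HEC normal and tumour.

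Slurp1, which encodes a secreted Ly6 protein and begins 13.2 kb from the start of Psca, was listed at 0 in all 3 BEC normal libraries. Its normalised counts were 0, 13.5 and 6.97 in BEC tumour and 49.7, 53.9 and 23.9 in HEC normal. They were 190.5, 187 and 185 in HEC tumour, above every other library. Set against a floor of 3 fragments over BEC normal, the level was 11.2-fold higher in HEC normal (34 fragments) and 1.74-fold higher in BEC tumour (6 fragments). These ratios leave out the counting error of the higher group, so they are not strict bounds, and 1 BEC tumour library was also at 0. With tumour, Slurp1 rose 4.41-fold in HECs (2.14 ± 0.75, adjusted p = 0.0143, DESeq2). Its exons overlap those of Them6, a thioesterase family gene, whose levels moved the other way in HECs (-1.36 ± 0.16, adjusted p = 1.87e-16).

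**Figure D2:**
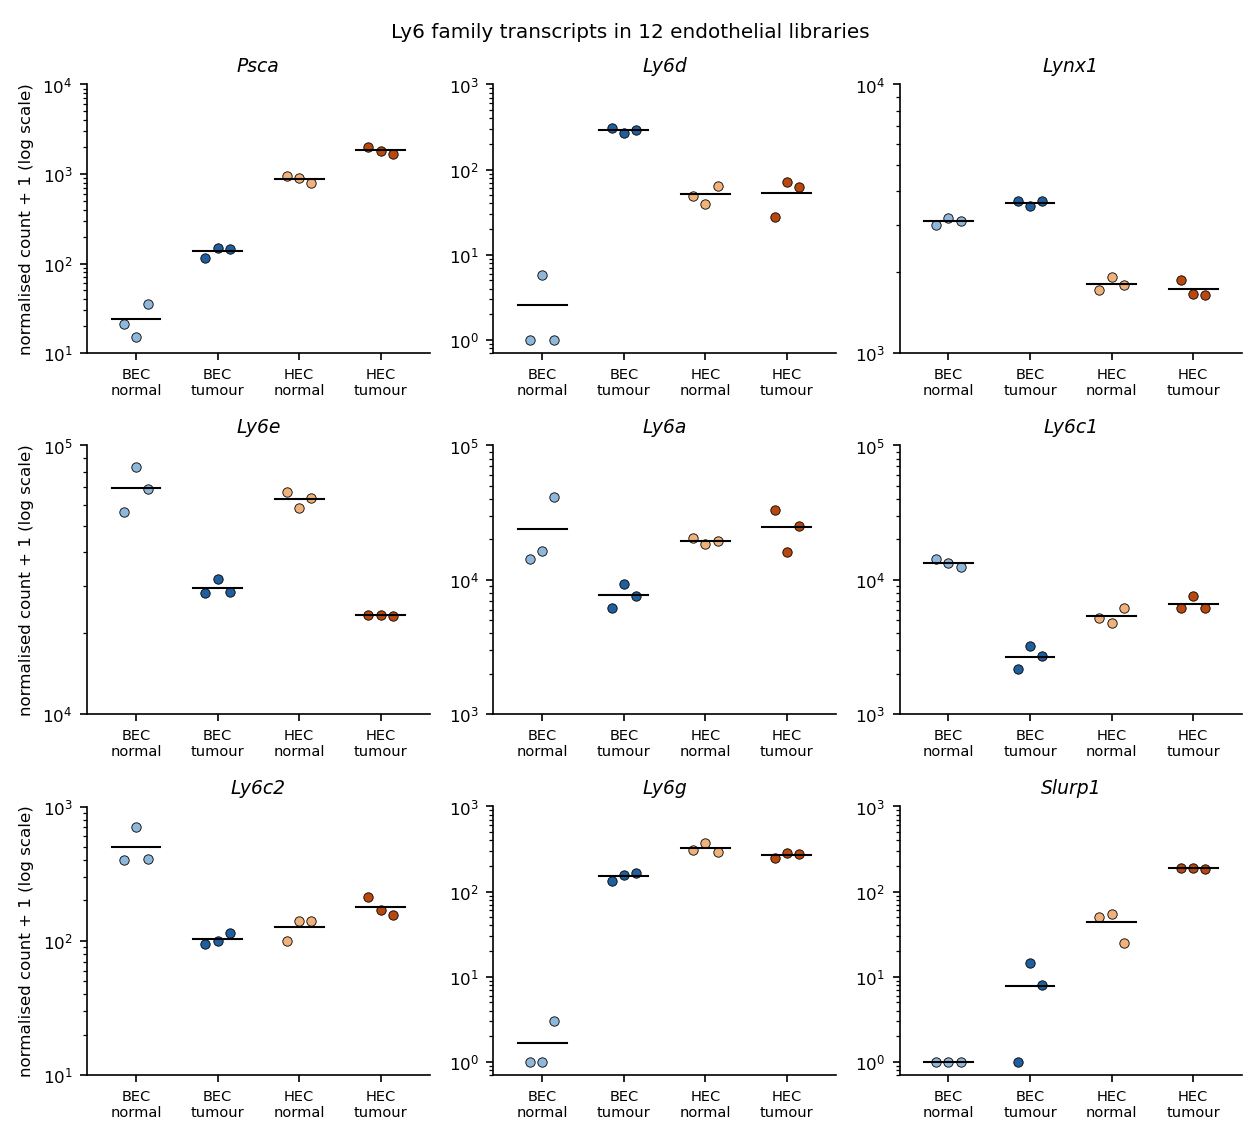
Normalised count + 1 on a log axis in each of the 12 endothelial libraries for the 7 tested members and for Ly6g and Slurp1. Points are libraries and bars are means of 3. Psca and Slurp1 are highest in HEC tumour and lowest in BEC normal, Ly6d is highest in BEC tumour (272 to 308), and Ly6c1 and Ly6c2 are highest in BEC normal.

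Ly6d, an antigen of keratinocytes and of early lymphoid progenitors, was highest in tumour BECs and near 0 in normal BECs. Its normalised counts were 0, 4.71 and 0 in BEC normal, where the deposited values stood for 1 fragment over the group. They were 308, 272 and 289 in BEC tumour, 47.7, 38.7 and 64.0 in HEC normal and 26.6, 70.1 and 60.9 in HEC tumour. The BEC tumour libraries lay above all others, and the ranges of the HEC groups overlapped.

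Counted in fragments, Ly6d was 232 times as high in BEC tumour as in BEC normal, 266 fragments against 1, and the 95% counting interval of the ratio ran from 41.2 to 9187. The same ratio for HEC normal was 40.4 (6.85 to 1633). The fitted log2 fold changes, 7.71 ± 0.83 and 5.19 ± 0.84, rest on that single fragment, and without BEC normal replicate 2, which held it, they were 10.69 and 8.16. In tumour-bearing mice Ly6d was 5.50-fold lower in HECs than in BECs (-2.46 ± 0.44, adjusted p = 9.03e-08, DESeq2). Between the HEC groups the log2 difference was 0.07 ± 0.45 (adjusted p = 0.94).

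The summed markers of keratinocytes and of simple epithelium were, like Ly6d, above their normal BEC range in every BEC tumour library. Of 8 keratinocyte markers, Krt5, Krt14, Krt1 and Krtdap were at 0 in BEC normal and none was at 0 in BEC tumour, where the sum was 15.9 to 18.9 CPM against 4.94 to 6.01. In HEC normal the sum was 5.78 to 6.28 CPM with Krt5, Krt1 and Krtdap at 0, and in HEC tumour it was 6.11 to 8.07 CPM with 5 markers at 0. Of 6 T cell markers, Cd3d, Cd3e, Cd3g and Cd2 were at 0 in BEC normal and in HEC tumour, the first 3 of them in HEC normal, and none in BEC tumour. Their sum was 4.71 to 4.92 CPM in BEC normal, 6.91 to 7.52 in BEC tumour, 6.86 to 8.29 in HEC normal and 4.65 to 5.92 in HEC tumour. The part of these or of other lymphoid cells in the Ly6d values was not tested. In sorted bulk samples such as these, fewer cells of a type and less RNA per cell cannot be told apart.

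The genes whose pattern was most like that of Ly6d were Cxcr4 (root mean square difference 0.62), Sncaip (1.07) and Ptgds (1.12), beside a median of 2.79 over all genes compared. Cxcr4 encodes the receptor of the chemokine CXCL12. It averaged 4.71 and 315 normalised counts in BEC normal and tumour, and 37.4 and 38.6 in HEC normal and tumour.

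Lynx1, the GPI-anchored modulator of nicotinic acetylcholine receptors, was higher in BECs than in HECs and varied little between libraries. The BEC normal libraries held 3001, 3179.6 and 3111 normalised counts of it and the BEC tumour libraries 3677, 3516 and 3683. The values were 1714, 1922 and 1794 in HEC normal and 1875, 1655 and 1646 in HEC tumour. Every BEC library lay above every HEC library, and the HEC groups overlapped.

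In tumour-bearing mice Lynx1 was 2.10-fold lower in HECs than in BECs (-1.07 ± 0.08, adjusted p = 1.17e-44, DESeq2). In mice without tumours the log2 difference was -0.77 ± 0.08 (adjusted p = 5.16e-24), under the fold threshold. With tumour the log2 fold changes were 0.23 ± 0.07 in BECs (adjusted p = 0.0048) and -0.07 ± 0.08 in HECs (adjusted p = 0.53), and neither was called.

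Of 16 nicotinic receptor subunit genes, 4 were tested in the endothelial libraries. In HEC normal against BEC normal 1 was called higher, Chrna7 (8.94), and 1 lower, Chrnb2 (-1.43). With tumour Chrna7 (9.25) and Chrnb1 (1.23) were called higher in BECs, and Chrnb2 (1.34) in HECs. In HEC tumour against BEC tumour Chrna1 (2.71) was called higher and Chrnb1 (-1.22) lower. Shares of all genes called higher and lower were 17.1% and 15.1% in HEC normal against BEC normal and 11.2% and 10.7% in this last comparison. With tumour 12.4% of all genes were called higher in BECs and 4.58% in HECs. Chrna7 was listed at 0 in all 3 BEC normal libraries and had normalised counts of 93.1 to 139 in BEC tumour, so its fitted log2 fold changes give no bound.

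Ly6k, known from testis and sperm, and Lypd2 were at or under a floor of 3 fragments in every group. Ly6k was listed at 0 in 11 of the 12 endothelial libraries and at a value of 4, about 1 fragment, in 1 BEC tumour library. Lypd2 was listed above 0 in HEC normal replicate 3 and HEC tumour replicate 2 only, at values of 2 and 11. Both were at 0 in all 6 EO771 libraries, and the floor of 3 fragments over a group is the level that a count of 0 allows. No fold is given for them.

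Ly6e fell with tumour in both endothelial types. Normalised counts of Ly6e were 56670.1, 83171 and 68748 in BEC normal and 28340.5, 31871 and 28362 in BEC tumour. They were 67244, 58265 and 63730.5 in HEC normal and 23418, 23285 and 23272 in HEC tumour. Each normal group lay above each tumour group, and the normal BECs and HECs overlapped.

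The decrease was 2.35-fold in BECs (-1.24 ± 0.12, adjusted p = 8.94e-23, DESeq2) and 2.70-fold in HECs (-1.44 ± 0.12, adjusted p = 1.14e-29). The changes differed by -0.20 ± 0.17 on the log2 scale (adjusted p = 0.363). HEC normal against BEC normal gave -0.14 ± 0.12 (adjusted p = 0.319) and HEC tumour against BEC tumour -0.34 ± 0.12 (adjusted p = 0.012), both under the fold threshold.

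Ly6e is an interferon-inducible gene, and 40 other interferon-stimulated genes were set beside it. In HECs 33 of the 40 were called lower with tumour, beside 3.21% of all genes. Their median log2 fold change was -1.42 for the 40 and 0.02 for all genes. The most changed of the 40 were Mx1 (-3.24), Oas2 (-3.16), Oas3 (-3.004) and Ifit3 (-2.98), which act against viral replication. Of the 40, 20 changed more in the negative direction than Ly6e and 20 less. In BECs 21 were called lower and 3 higher, beside 10.8% and 12.4% of all genes (median -1.03, all genes 0.01). Those lower were led by Ifi27l2a (-2.88), Oas2 (-2.63), Usp18 (-2.37) and Mx1 (-2.28), and 16 of the 40 lay below Ly6e. In HEC normal against BEC normal 11 were higher and 1 lower, in HEC tumour against BEC tumour 5 and 2, and in the difference of the tumour changes 1 and 12. The same 3 comparisons called 17.1% and 15.1%, 11.2% and 10.7%, and 11.2% and 12.1% of all genes. The list was drawn up with earlier results of these libraries known.

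Among all genes compared, those most like Ly6e over the 12 libraries were Ifi35 (root mean square difference 0.18), Dtx3l (0.18) and Fzd2 (0.19), beside a median of 0.79. Ifi35 and Dtx3l are interferon-induced, and Fzd2 encodes a Wnt receptor. Dtx3l averaged 4194 and 1852 normalised counts in BEC normal and tumour, and 3997 and 1626 in HEC normal and tumour.

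**Figure D3:**
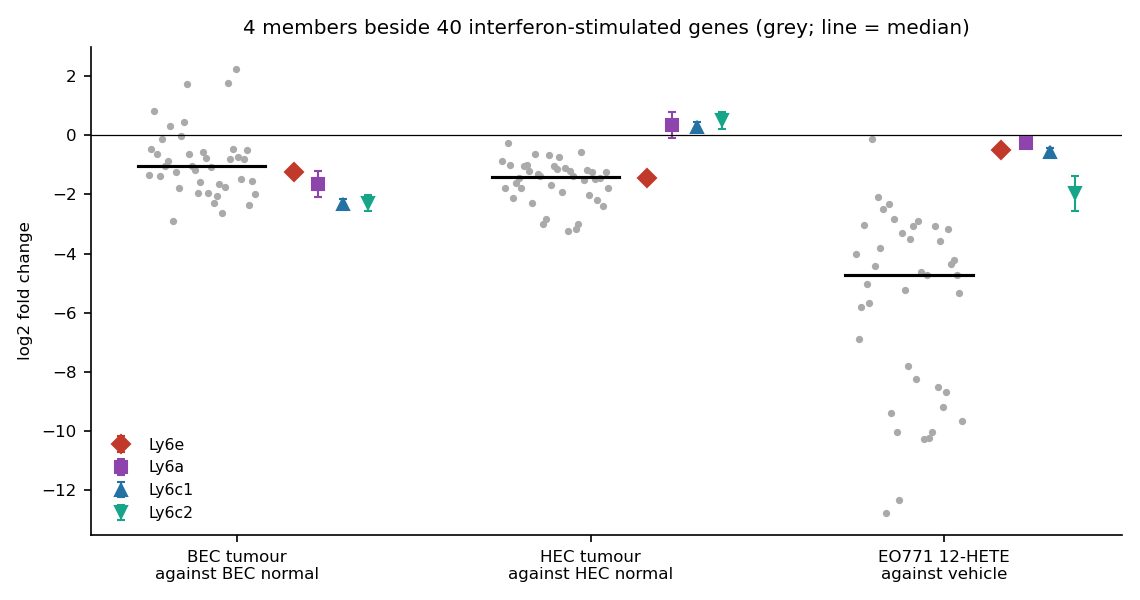
Log2 fold changes of 40 interferon-stimulated genes (grey points, bar at the median) and of 4 members (± SE) with tumour in BECs, with tumour in HECs and with 12-HETE in EO771 cells. Ly6e lies at the median of the list in HECs (-1.44 beside -1.42), and Ly6a, Ly6c1 and Ly6c2 lie above all 40 there. In EO771 cells all 4 members lie above the median of -4.73.

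Ly6a (Sca-1), a marker of haematopoietic stem cells and of many endothelial cells, was lower in tumour BECs than in the other endothelial groups. The libraries held 14348, 16499 and 41089.8 normalised counts of Ly6a in BEC normal and 6112, 9276 and 7587 in BEC tumour. The values were 20588, 18498 and 19600.2 in HEC normal and 33271, 16147 and 25102 in HEC tumour. BEC normal replicate 3 was over 2-fold above the other libraries of its group, and all 3 BEC tumour libraries lay below every other library.

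Ly6a fell 3.13-fold with tumour in BECs (-1.65 ± 0.44, adjusted p = 4.61e-04, DESeq2). Without BEC normal replicate 3 the log2 fold change was -1.02 and was still called. In HECs it was 0.34 ± 0.44 (adjusted p = 0.594). The changes differed by 1.99 ± 0.62 (adjusted p = 0.00362), and by 1.36 without that library. In tumour-bearing mice Ly6a was 3.24-fold higher in HECs than in BECs (1.70 ± 0.44, adjusted p = 2.98e-04). Without tumours the difference was -0.29 ± 0.44 (adjusted p = 0.574), and its sign turned, to 0.33, without BEC normal replicate 3. The genes most like Ly6a were Soat2 (0.39), Arhgef25 (0.40) and Dll1 (0.41), beside a median of 0.90. Dll1, which encodes a Notch ligand, averaged 2093 and 765 normalised counts in BEC normal and tumour, and 1722 and 1977 in HEC normal and tumour.

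Ly6c1, which encodes the Ly6C protein of endothelium and of T cell subsets, was highest in normal BECs and lowest in tumour BECs. Its normalised counts were 14272, 13433 and 12442 in BEC normal and 2150.1, 3194 and 2696 in BEC tumour. They were 5156, 4792 and 6190.3 in HEC normal and 6186, 7520.5 and 6126 in HEC tumour. The HEC groups overlapped and lay between the BEC groups.

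Ly6c1 fell 4.99-fold with tumour in BECs (-2.32 ± 0.15, adjusted p = 7.34e-51, DESeq2), against a log2 fold change of 0.30 ± 0.15 in HECs (adjusted p = 0.119). The changes differed by 2.62 ± 0.22 (adjusted p = 1.59e-32). The order of the cell types turned with tumour. Without tumours Ly6c1 was 2.49-fold lower in HECs than in BECs (-1.31 ± 0.15, adjusted p = 3.10e-17), and with tumours it was 2.47-fold higher (1.30 ± 0.15, adjusted p = 1.36e-16). The genes most like it were Snai1 (0.20), Gem (0.21) and Lhx6 (0.24), beside a median of 0.94. Snai1 and Lhx6 encode transcription factors and Gem a small GTPase.

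Ly6c2, which encodes the Ly6C protein of monocytes, had the same order of group means as Ly6c1. Reads of the near copy Ly6c1 may be part of the Ly6c2 values, so the likeness is not a separate result. Normalised counts of Ly6c2 were 399, 697 and 402 in BEC normal and 93.7, 98.1 and 113 in BEC tumour. They were 98.4, 138 and 139.5 in HEC normal and 212, 169 and 155 in HEC tumour. BEC normal lay above all others, and BEC tumour overlapped HEC normal.

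Ly6c2 fell 4.90-fold with tumour in BECs (-2.29 ± 0.28, adjusted p = 4.25e-15, DESeq2), and its log2 fold change in HECs was 0.51 ± 0.29 (adjusted p = 0.164). The changes differed by 2.80 ± 0.40 (adjusted p = 3.03e-11). Without tumours it was 3.97-fold lower in HECs than in BECs (-1.99 ± 0.28, adjusted p = 7.48e-12). With tumours the difference was 0.81 ± 0.29 (adjusted p = 0.0104), under the fold threshold. The myeloid markers were highest in BEC tumour, the group with the lowest mean of Ly6c2. The part of myeloid cells in the Ly6c2 values was not tested in any group. The 10 markers of fibroblasts and pericytes were, like Ly6c1 and Ly6c2, highest in BEC normal. They summed to 888 to 902 CPM there, 107 to 139.5 in BEC tumour, 34.1 to 36.0 in HEC normal and 19.5 to 20.3 in HEC tumour, with Lum at 0 in both normal groups. The summed endothelial markers were also lower in every BEC tumour library than in every BEC normal library. Of the 10, 3 were called lower (Kdr, Esam and Cldn5), beside 10.8% of all genes, and their median log2 fold change was -0.55. The sum of 5 markers of lymphatic endothelium was 341 to 362 CPM in BEC normal, 201 to 222 in BEC tumour, 282 to 338 in HEC normal and 349.6 to 360.0 in HEC tumour, with Mmrn1 at 0 in BEC normal and HEC tumour. The part of these cells in the Ly6a, Ly6c1 and Ly6c2 values was not tested.

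In the difference of the tumour changes between HECs and BECs, 3 of the 7 tested members were called in the positive direction (Ly6a, Ly6c1 and Ly6c2) and 2 in the negative (Psca and Ly6d), where 11.2% and 12.1% of all genes were called. Those called in the positive direction are the last 3 of the 9 members along the chromosome, and in each the level fell in BECs with no call in HECs. Ly6e, between them and Psca, fell in both.

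**Figure D4:**
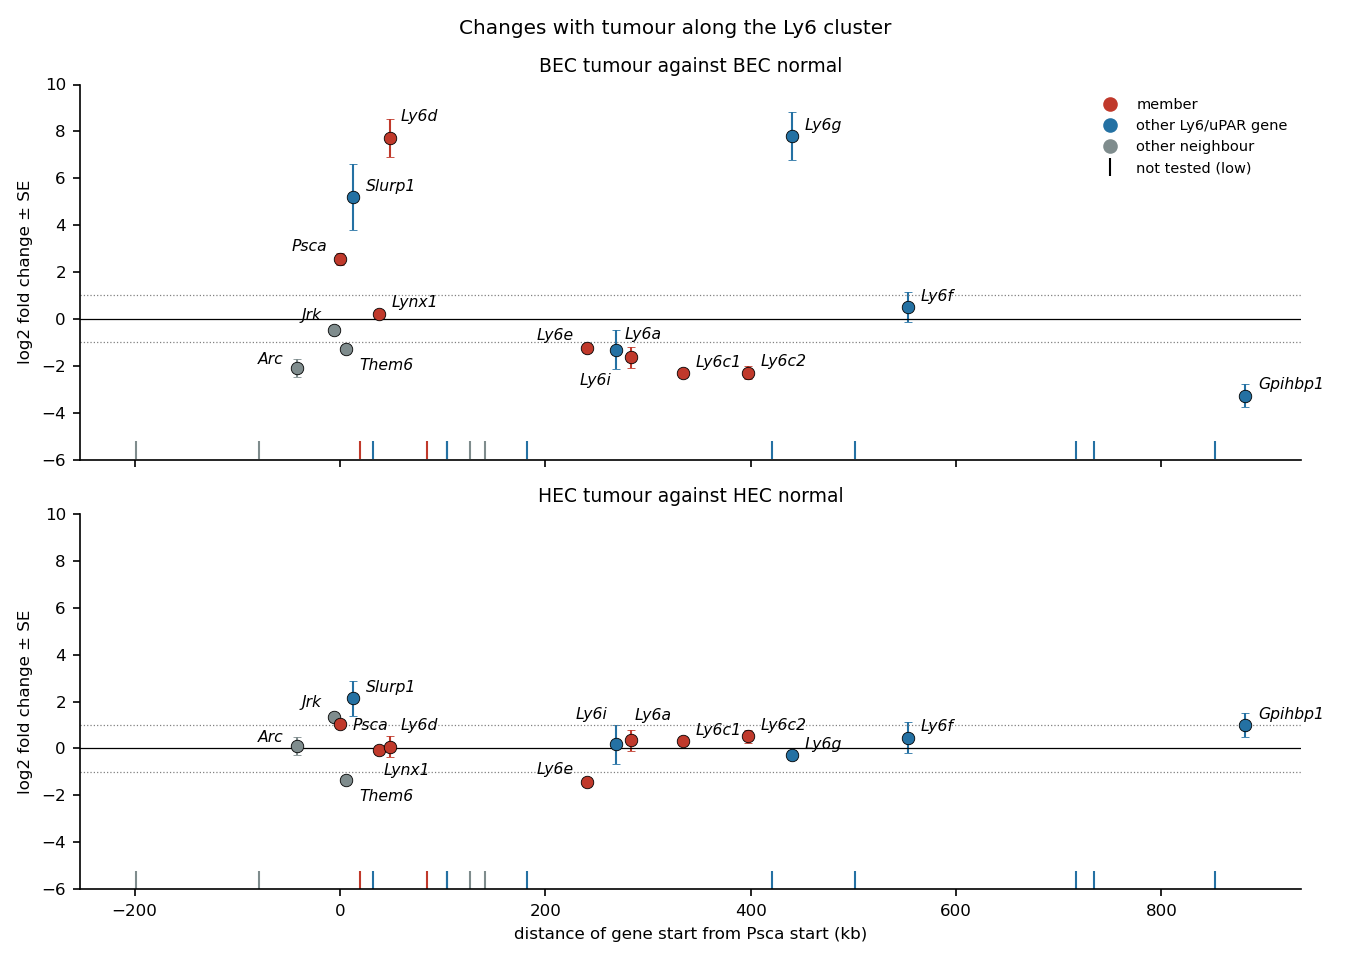
Log2 fold change (± SE) with tumour in BECs and in HECs of the tested genes, plotted by the distance of each gene start from that of Psca in kb. Ticks at the foot mark genes too low to test. In BECs the members within 50 kb of Psca lie at 0.23 or above, and Ly6e, Ly6a, Ly6c1 and Ly6c2, from 240 to 397 kb, lie at -1.24 or below. In HECs the only members past the dotted lines are Psca and Ly6e.

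Of the 14 other Ly6/uPAR genes of chromosome 15, 5 were tested in the endothelial libraries, with 2 called higher and 1 lower with tumour in BECs and 1 higher in HECs. The shares of all genes called so were 12.4%, 10.8% and 4.58%. Ly6g, the antigen that marks neutrophils, was at 0, 0 and 2.03 normalised counts in BEC normal and 132, 155 and 167 in BEC tumour. It was at 308, 369 and 293 in HEC normal and 245, 283 and 275 in HEC tumour. The HEC libraries were the highest and the normal BECs were at or near 0. In fragments, Ly6g was 121 times as high in BEC tumour as in BEC normal (95% counting interval 21.4 to 4817, 139 against 1) and 259 times as high in HEC normal (46.1 to 10265). Between the HEC groups the log2 difference was -0.27 ± 0.20 (adjusted p = 0.3, DESeq2). The 11 myeloid markers, which include S100a8 and S100a9, were highest in BEC tumour, at 688.5 to 1149 CPM against 13.1 to 20.1 CPM in BEC normal. They summed to 9.86 to 11.6 CPM in HEC normal and 8.403 to 13.8 CPM in HEC tumour. The part of myeloid cells in the Ly6g values was not tested.

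Gpihbp1, which encodes the capillary protein that carries lipoprotein lipase into the vessel lumen, fell 9.65-fold with tumour in BECs (-3.27 ± 0.51, adjusted p = 6.07e-10, DESeq2). Per library it had normalised counts of 428, 424 and 335 in BEC normal and 34.3, 72.8 and 15.7 in BEC tumour. They were 93.3, 42.7 and 45.9 in HEC normal and 92.4, 166 and 107 in HEC tumour. All BEC normal libraries lay above all others. In HECs the log2 fold change was 1.01 ± 0.51 (adjusted p = 0.112), and the changes differed by 4.28 ± 0.72 (adjusted p = 1.59e-08). Ly6f and Ly6i had group means of at most 95.9 and 44.6 normalised counts and were called in no endothelial comparison (DESeq2 adjusted p of 0.165 or more).

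Of 7 neighbours of the cluster outside the family, 3 were tested. Jrk, 5.30 kb from Psca, rose 2.51-fold in HECs with tumour (1.33 ± 0.11, adjusted p = 5.00e-30, DESeq2) and had a log2 fold change of -0.49 ± 0.11 in BECs. Them6 fell in both (-1.36 ± 0.16 in HECs and -1.29 ± 0.16 in BECs). Arc, the immediate early gene of neurons, fell in BECs (-2.10 ± 0.37, adjusted p = 9.20e-08) and was at 0.10 ± 0.39 in HECs.

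Of 19 Ly6/uPAR genes on other chromosomes, 9 were tested, with 2 called higher and 2 lower with tumour in BECs and 1 higher and 2 lower in HECs. Of those called lower with tumour in BECs, Cd59b (-7.90), a complement inhibitor, was listed at 0 in all 3 BEC tumour libraries, so that its fitted value gives no bound, and Plaur, the urokinase receptor, changed by -1.03 ± 0.06. In HECs Cd177 (-1.55) and Cd59a (-1.0002) were called lower and Ly6g5b (1.41) higher. In HEC normal against BEC normal 3 were called higher and 1 lower, beside 17.1% and 15.1% of all genes. In HEC tumour against BEC tumour 4 were called higher, beside 11.2%. The tumour comparisons called 12.4% of all genes higher and 10.8% lower in BECs, and 4.58% and 3.21% in HECs.

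The enzymes that build the GPI anchor serve all anchored members. Of 30 genes of GPI anchor assembly and remodelling, all tested, 1 was called higher with tumour in BECs (Pigz, 7.65, listed at 0 in all BEC normal libraries) and 1 in HECs (Pigw, 1.43). The median log2 fold changes were 0.15 in BECs and 0.04 in HECs, where 12.4% and 4.58% of all genes were called higher. In HEC normal against BEC normal 1 was higher and 2 lower, beside 17.1% and 15.1% of all genes. In HEC tumour against BEC tumour 3 were lower, Pgap1 (-1.33), Pigt (-1.08) and Pigs (-1.03), beside 10.7%.

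Levels of different genes were compared per kilobase of exon. In BEC normal the order was Ly6a (19899.6 ± 12329.8 normalised counts per kb), Ly6e (18375 ± 3506), Ly6c1 (7979.8 ± 546), Lynx1 (664 ± 19.3), Ly6c2 (182 ± 62.4), Psca (26.7 ± 12.2) and Ly6d (2.11 ± 3.65). Of these 7, only Ly6a and Ly6e overlapped as neighbours in that order. In HEC tumour the order was Ly6a (20614 ± 7108), Ly6e (6164 ± 21.4), Ly6c1 (3942 ± 469.9), Psca (2139 ± 202), Lynx1 (370.1 ± 27.8), Ly6d (70.6 ± 30.8) and Ly6c2 (65.2 ± 10.9), and only Ly6d and Ly6c2 overlapped. Psca thus stood in place 6 of the 9 members in both BEC groups and in place 4 in both HEC groups. In BEC tumour Ly6e (7802 ± 537) and Ly6a (6356 ± 1314) overlapped at the head, and so did they in HEC normal (16670.2 ± 1196 and 16234 ± 868).

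In cultured EO771 cells Ly6a, Ly6e and Ly6c1 were the leading members, with 8529.8 ± 887, 3254 ± 311 and 2737 ± 401 normalised counts per kb under vehicle. Ly6e and Ly6c1 overlapped. Lynx1 (74.1 ± 13.6), Psca (19.4 ± 7.32), Ly6c2 (7.11 ± 0.647) and Ly6d (2.23 ± 0.822) followed. With 12-HETE 1 of the 6 tested members, Ly6c2, was called lower, beside 7.79% of all 11602 genes, and 0 were called higher, beside 2.38%. At an unadjusted p under 0.05 of the DESeq2 test, 4 members were lower and 1 was higher, and edgeR also called 1 member.

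Ly6c2 was at 18.8, 18.2 and 21.5 normalised counts under vehicle and at 5.13, 4.93 and 4.92 with 12-HETE. Its raw counts were 19, 19 and 21 against 5, 5 and 5. The groups did not overlap, the decrease was 3.90-fold (-1.96 ± 0.59, adjusted p = 0.00315, DESeq2), and the counts are low. They may also hold reads of Ly6c1.

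Ly6c1 was at 5208, 3875 and 4686 normalised counts under vehicle and 3186, 3177 and 2923 with 12-HETE, a log2 fold change of -0.57 ± 0.13 (adjusted p = 5.04e-05, DESeq2). Ly6e was at 13456, 11102 and 12382 and 8658, 8873 and 8752, a change of -0.49 ± 0.10 (adjusted p = 3.93e-06). Ly6a was at 11407, 9282 and 10147 and 8533, 8856 and 8326, a change of -0.26 ± 0.10 (adjusted p = 0.0268). In all 3 genes every 12-HETE library lay below every vehicle library, and the fold changes were under 2.

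Psca was at 13.9, 23.9 and 12.3 normalised counts under vehicle and 17.5, 24.6 and 27.6 with 12-HETE, and the groups overlapped (0.47 ± 0.48, adjusted p = 0.423, DESeq2). Lynx1 was at 361, 399 and 275 and 423, 441 and 431, with every 12-HETE library above every vehicle library (0.32 ± 0.16, adjusted p = 0.0925). Ly6d had raw counts of 2, 1 and 2 and 5, 6 and 8 and was not tested. The vehicle libraries differed more among themselves than the 12-HETE libraries, with a chi-square per degree of freedom of 16.5 to 46.3 between vehicle pairs against 2.39 to 2.72.

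**Figure D5:**
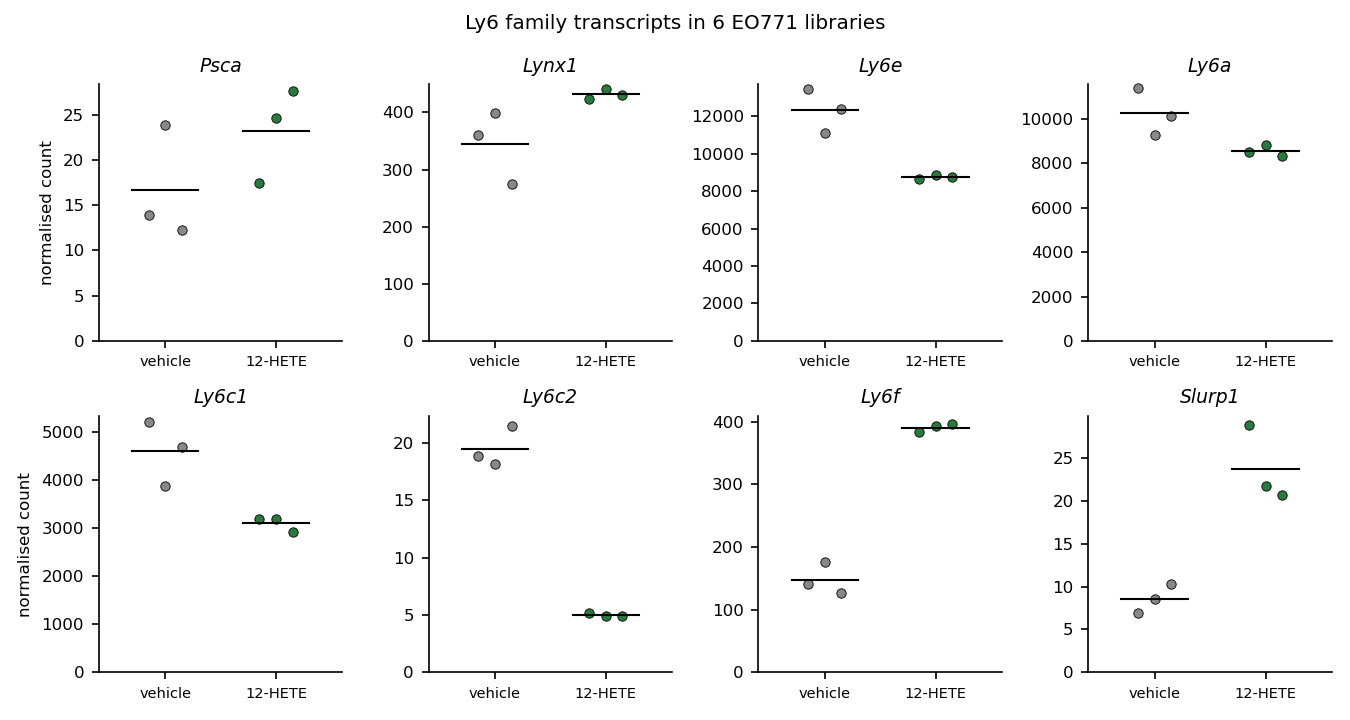
Normalised counts of 6 members, Ly6f and Slurp1 in the 6 EO771 libraries, on linear axes from 0. Points are libraries and bars are means of 3. Ly6c2 lies near 5 with 12-HETE against 18.2 to 21.5 under vehicle, Ly6f and Slurp1 lie above their vehicle levels, and the Psca groups overlap.

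Of the other Ly6/uPAR genes of chromosome 15, 6 were tested in EO771 cells, with 2 called higher and 2 lower, beside 2.38% and 7.79% of all genes. Ly6f rose 2.64-fold, from 141, 176 and 127 to 383, 393 and 396 normalised counts (1.40 ± 0.16, adjusted p = 3.04e-16, DESeq2). Slurp1 rose from 6.93, 8.60 and 10.2 to 28.8, 21.7 and 20.7 (1.47 ± 0.51, adjusted p = 0.0108). Ly6i (-1.08 ± 0.39) and 2010109I03Rik (-1.07 ± 0.44) fell, Ly6i from 28.7, 42.0 and 36.9 to 16.4, 16.8 and 17.7. Ly6g (-0.02 ± 0.36) and BC025446 (0.22 ± 0.20) were not called.

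Of the 40 interferon-stimulated genes, 39 were called lower with 12-HETE, beside 7.79% of all genes, and their median log2 fold change was -4.73 beside 0.00. The strongest were Ifi44 (-12.77), Ifit3b (-12.32), Mx2 (-10.27) and Oas2 (-10.24), and Ifi44 and Ifit3b each rest on 1 count over the 12-HETE libraries. Ly6e, at -0.49, changed less than 39 of the 40, the exception being Gbp3 (-0.11). Of 30 GPI anchor genes 1 was higher (Pgap1, 1.91) and 1 lower (Pigz, -2.09), and of 3 tested nicotinic receptor subunits Chrnb4 (-3.18) was lower. Of 5 tested Ly6/uPAR genes elsewhere none was called by DESeq2 or had an unadjusted p under 0.05. The shares of all genes called higher and lower were 2.38% and 7.79%. The neighbour Arc fell (-2.56 ± 0.37, adjusted p = 4.53e-11). The sum of the simple epithelium markers was 3390 to 4384 CPM under vehicle and 2290 to 2362 CPM with 12-HETE. That of the fibroblast and pericyte markers went the other way, from 390.9 to 614.3 CPM under vehicle to between 998.4 and 1038 CPM with 12-HETE. A relation of these sums to the Ly6 values was not tested.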

How the data were processed

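RNA-seq libraries of sorted mouse endothelial cells and of EO771 cells were analysed from the deposited tables. The authors aligned reads to GRCm38 with STAR and counted them per gene with featureCounts. The authors deposited raw counts per gene symbol for EO771. The deposited endothelial values were treated as estimated counts, because they are whole numbers that rise in steps of about 3.7 (3.665 to 3.715 per library, searched between 3 and 5), so 1 unit is not 1 fragment. Values divided by the step were used for floors and counting intervals, which cover counting error only, because no molecular identifiers were read and copies of one molecule may count more than once. Labels and methods name different library kits, and the strand setting of the counting is not given in the sources used here.

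Groups were taken from sample titles. DESeq2 1.42.0 (R 4.3.3) was fitted to the 12 endothelial libraries and, apart from them, to the 6 EO771 libraries, with group as the only term, a two-sided Wald test, a minimum mean value of 10 and Benjamini-Hochberg adjustment over all genes tested, and was tested on simulated data. Levels are DESeq2 normalised counts (mean ± SD, n = 3), and log2 fold changes are ± SE. CPM are values scaled to the library total. An exact permutation test of 3 against 3 libraries cannot give a two-sided p under 0.1. Alternatives were edgeR 4.0.16, TMM library sizes, no filter, an adjusted p alone, a replicate block, values divided by the step, fits of 2 groups and leaving out each replicate. In EO771 cells, deviations of same-numbered vehicle and 12-HETE libraries had correlations of 0.11, 0.17 and 0.33. Libraries of different numbers were not compared, so whether the numbers pair libraries is not established. The main fit is unpaired, and the replicate block is the paired alternative.

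The members and all gene and marker lists were chosen with earlier results of these data known. One marker list is not reported here. Named are the 9 members, the tested Ly6/uPAR genes of chromosome 15, at most 4 called genes of each other list by size of change, the markers a result needed, and the 3 genes most like each of 5 members, at a mean value of 100 or more, on log2(normalised count + 1). The neighbours, within 500 kb of the members, were named where tested. Ly6g2 and Ly6m were matched as BC025446 and 2010109I03Rik. Motifs and promoters came from RefSeq (GRCm38.p6), and 2 of the 9 members matched its promoter table.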

Additional observations from a re-analysis of the deposited data

Results flagged for a closer look

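For 5 members the tumour change in HECs differed from that in BECs by a test of the difference itself (DESeq2, 3 libraries a group, adjusted over 18511 genes). The change in HECs less that in BECs was -1.50 ± 0.30 on the log2 scale for Psca (SE, adjusted p = 2.55e-06), 1.99 ± 0.62 for Ly6a (adjusted p = 0.00362), 2.62 ± 0.22 for Ly6c1 (adjusted p = 1.59e-32) and 2.80 ± 0.40 for Ly6c2 (adjusted p = 3.03e-11). Psca was higher with tumour in every library of both cell types, so its difference is one of size. With values divided by the step the Psca difference was -1.56 (adjusted p = 6.39e-04, DESeq2). For Ly6d the fitted difference was -7.65 ± 0.94 (adjusted p = 6.18e-15), and its size is not resolved, because BEC normal held 1 fragment.

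Among the other Ly6/uPAR genes of chromosome 15, the same difference was -8.08 ± 1.06 for Ly6g (adjusted p = 2.21e-13, DESeq2), again against 1 fragment in BEC normal, and 4.28 ± 0.72 for Gpihbp1 (adjusted p = 1.59e-08). The BEC and HEC libraries came from different tissues, and a difference between the cell types and one between the tissues cannot be told apart. Single outlying libraries were sought only by the default filter of DESeq2 and by leaving out each replicate in turn.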

How the results depend on the processing

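Of 515 alternative values of members' log2 fold changes, 508 kept their direction and their side of the threshold, 2 lost the call and 5 turned sign. The lost calls were those of Psca in HECs with tumour, 0.98 without HEC normal replicate 3 and 0.99 without HEC tumour replicate 1, so the members called there ranged from 1 to 2 when each replicate was left out. The turned signs were all of uncalled values: Ly6d between the HEC groups was -0.09 without HEC normal replicate 2, -0.20 without HEC tumour replicate 2, -0.05 without HEC tumour replicate 3 and -0.045 under the replicate block, and Ly6a in HEC normal against BEC normal was 0.33 without BEC normal replicate 3. With each replicate left out these ran from -0.20 to 0.39 for Ly6d and from -0.56 to 0.33 for Ly6a. By adjusted p alone, 4 members in place of 1 were called with 12-HETE, since this drops the fold threshold. TMM library sizes moved the median log2 fold change of all genes to at most 0.06 in size.

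In the endothelial libraries the replicate numbers were not taken to pair samples, with correlations of deviations from -0.02 to 0.13. The replicate block moved the calls over all genes from 5965 to 6000, 4056 to 4063, 1443 to 1379, 4305 to 4242 and 4309 to 4224 in HECs against BECs without and with tumour, HECs with tumour, BECs with tumour and the difference of the tumour changes. In EO771 cells, where pairing is not established, the block moved them from 1180 to 1083. It changed no call of a member in either table. The depth of the libraries limits Ly6k, Lypd2 and, in BEC normal, Ly6d, Ly6g and Slurp1, which rest on 1 fragment or fewer over 3 libraries, or at most 3 in any group for Ly6k and Lypd2.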
